A study of Homo sapiens with 20 samples.

Results

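The enzymes that write and remove DNA methylation were followed through the erythroid differentiation of HUDEP-2 cells. The set held 9 genes named by symbol, DNMT1, DNMT3A, DNMT3B, UHRF1, TET1, TET2, TET3, TDG and MBD2, of 46425 gene symbols in the tables. The values of the 82 transcripts carrying these symbols, of 170322 transcripts in all, were summed by gene.

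HUDEP-2 cells are erythroid progenitors derived from umbilical cord blood, immortalized so that they grow in the presence of doxycycline. All cells were wild type and came from this 1 line. Day 0 was sampled in expansion medium with EPO at 3 U/ml, SCF at 100 ng/ml, doxycycline at 1 µg/ml and dexamethasone. Days 1, 2, 3, 4, 5, 6, 7, 8 and 12 were sampled in differentiation medium. It held EPO, SCF and doxycycline at the same levels, 5% human serum, holo-transferrin, heparin and insulin, and no dexamethasone was listed for it. SCF was withdrawn on day 6 and doxycycline on day 8. Each of the 10 days had 2 libraries of polyadenylated RNA. The library in the table that spans all days is called set A here and the library in the tables of separate days set B. Those names describe the deposited tables only, and nothing in the labels says whether the libraries of a day came from separate cultures, so a p-value below measures the spread between these samples, which may be technical.

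DNA methylation in mammals is carried by cytosines in CpG dinucleotides. DNMT1 copies the mark onto the new strand after replication, and UHRF1 recognises hemimethylated DNA and brings DNMT1 to it. DNMT3A and DNMT3B set new methylation. The TET dioxygenases oxidise 5-methylcytosine, TDG excises the more oxidised products so that base excision repair can restore a plain cytosine, and MBD2 binds methylated CpG and recruits the NuRD deacetylase complex. Erythroblasts are known for a progressive loss of DNA methylation as they divide towards enucleation, and TET2 is often mutated in myeloid disease.

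Totals ran from 52131713 to 70358198 counts per library, so that 3 counts, the limit that a count of 0 allows, were 0.0426 to 0.0575 CPM, the count of a gene relative to all counts of its library. Intervals and floors of this kind cover counting error only. Ribosomal RNA took 17.6% of the set B library of day 7 and 16.8% of that of day 8, against 0.737% to 2.68% in the other 18 libraries. Between the 2 libraries of a day, 65.3% to 78.0% of genes differed beyond sampling noise. The summed TPM, a level scaled by transcript length and set to the same total in every library, of 12 erythroid markers rose from 33366 and 33075 on day 0 to 627621 and 594036 on day 12. Of 8 leukocyte markers, CD3E and NKG7 were at 0 in the 8 libraries of days 0, 4, 8 and 12, where CD68 was the highest of the list, and over all days the list summed to 2.01 to 32.5 TPM. Of 5 megakaryocyte markers, PF4 and PPBP were at 0 in those 8 libraries, and ITGA2B fell from 10.7 TPM in set A and 68.9 TPM in set B on day 0 to 0.140 and 0.292 TPM at day 8. The part of that difference between the sets in the results below was not tested.

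**Figure D1:**
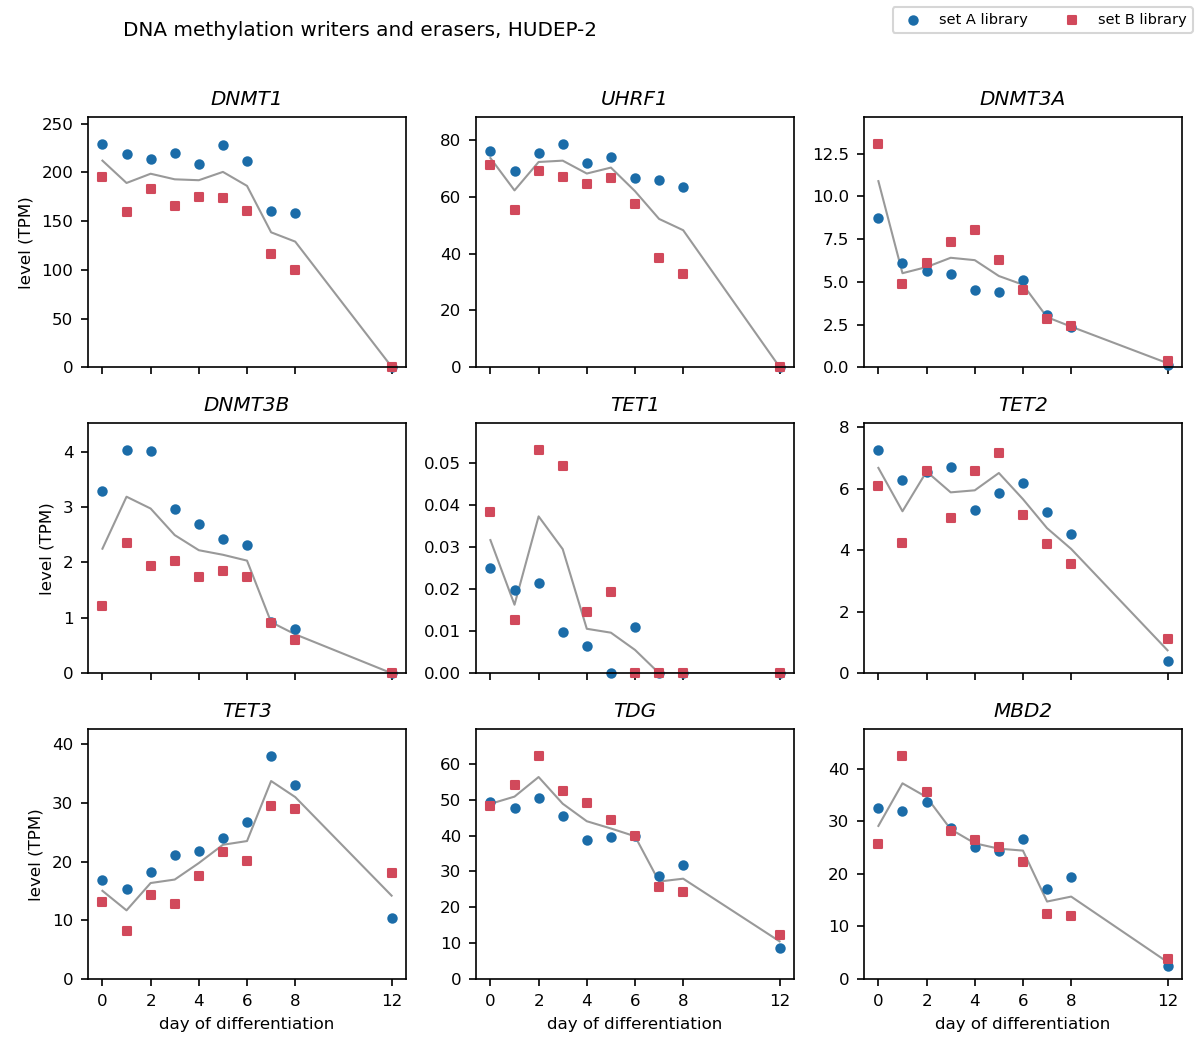
Level of each of the 9 genes in TPM (y axis, from 0, a scale of its own in each panel) against the day of differentiation (x axis). Circles are the set A library and squares the set B library of a day, and the line joins their means. TET3 had its highest values on day 7, at 38.0 and 29.5 TPM, while DNMT1 and UHRF1 were near 0 on day 12.

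In 5 comparisons the counts were tested with edgeR, in 1 fit over all 20 libraries and 16784 genes. On day 1 against day 0 none of the 9 genes passed an adjusted p of 0.05, where 0.262% of all genes were called higher and 0.131% lower. DNMT3A and MBD2 had an unadjusted p under 0.05 there, and no other test run called a member. On day 4 against day 0 again none passed, where 2.93% of all genes were called higher and 2.35% lower. There DNMT3A had an unadjusted p under 0.05, and DESeq2 called DNMT3A. On day 8 against day 4 only TET3 passed, and it was higher, as were 7.94% of all genes, while 9.24% were lower. On day 8 against day 0 TET3 was higher, as were 17.7% of all genes, and DNMT3A and TET1 were lower, as were 19.4%. On day 12 against day 8 no member was called higher, where 23.8% of all genes were, and 6 of 9 were called lower, where 33.4% of all genes were. The median log2 fold change of the 9 in that last comparison was -1.08, and that of all genes tested was -0.20.

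**Figure D2:**
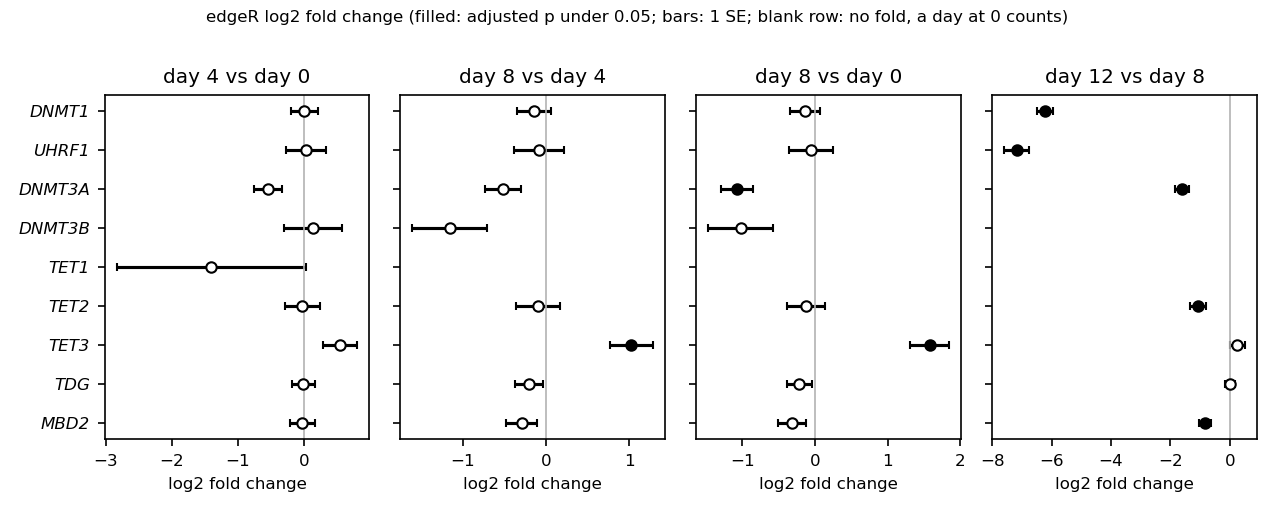
Log2 fold change of each gene (x axis, edgeR, TMM-scaled counts, a scale of its own in each panel) in 4 comparisons, with bars of 1 SE. Filled points passed an adjusted p of 0.05. Rows without a point are genes with 0 counts in both libraries of a day, for which no fold change is drawn. TET3 stands alone on the higher side on day 8, and DNMT1 and UHRF1 lie far below 0 on day 12.

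The maintenance methyltransferase was the most abundant member until day 8. DNMT1 (chromosome 19, 10133346 to 10194953, minus strand, hg38) had 229 TPM in set A and 195 TPM in set B on day 0, 158 and 100 TPM at day 8, and 0.459 and 0.823 TPM on day 12. Set A was above set B on 9 of the 9 days from 0 to 8, and the day 12 values, from 131 and 194 counts, were far outside the range of the earlier days. On the TMM scale DNMT1 averaged 405 ± 75.4 CPM (SD, n = 2) on day 8 and 5.45 ± 1.14 CPM on day 12. This was a fall by 6.21 on the log2 scale (SE 0.26, edgeR adjusted p = 4.6e-10), by 6.61 within set A and by 5.81 within set B. Between day 0 and day 8 the fitted change was -0.14 (SE 0.21, adjusted p = 0.627). The libraries of those days overlapped on this scale. In TPM they did not overlap, and limma on log2(TPM + 1) called the difference of -0.74 (adjusted p = 0.0330). The median change of all genes in that limma fit was -0.34.

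UHRF1, the partner that reads hemimethylated CpG (chromosome 19, 4903080 to 4962154, plus strand), took the same course. It had 75.9 TPM in set A and 71.3 TPM in set B on day 0, 63.6 and 32.9 TPM at day 8, and 0.0380 and 0.212 TPM on day 12. Those last values rest on 9 and 37 counts. The fall from day 8 to day 12 was 7.17 on the log2 scale (SE 0.42, edgeR adjusted p = 1.1e-08), from 111 ± 36.0 CPM to 0.757 ± 0.618 CPM. Day 8 against day 0 gave -0.05 (SE 0.30, adjusted p = 0.924). The values of the 2 sets parted from day 7, when set B, whose library held the excess of ribosomal RNA, had 38.5 TPM and set A 65.9 TPM. In bulk RNA of this kind, fewer cells that express a gene and less of its RNA per cell cannot be told apart.

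DNMT1 stayed at 2.44 to 3.18 times the TPM of UHRF1 in the 18 libraries of days 0 to 8. Their log2 CPM had a Pearson r of 0.994 over the 20 libraries and of 0.764 over the 18 libraries of days 0 to 8. These libraries share their days, so that the first value is largely the difference between day 12 and the rest. The genes whose log2 CPM was most like DNMT1 over the 20 libraries were MCM6 (r = 0.999), a subunit of the replicative helicase, GINS4 (r = 0.999) of the same helicase and TMEM62 (r = 0.998). For UHRF1 they were EXO1 (r = 0.998), a DNA repair exonuclease, CEP78 (r = 0.997) and CDC25A (r = 0.997), a phosphatase that activates cyclin-dependent kinases.

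Of 15 proliferation markers, 15 were lower on day 12 than on day 8, where 33.4% of all genes were. Their median log2 fold change was -5.45. On day 8 against day 0, 7 of the 15 were higher on the counts, where 17.7% of all genes were. The median TPM change of the 15 was then 0.02 on the log2 scale. The summed level of the 15 was 3710 TPM in set A and 3166 TPM in set B on day 0. It was 3750 and 2718 TPM at day 8, and 96.1 and 110 TPM on day 12. Against day 0 of the same set, 2.59% and 3.47% of the marker sum remained on day 12. DNMT1 then stood at 0.200% and 0.421% of its day 0 level and UHRF1 at 0.050% and 0.297%. The marker sum of day 12 was largely 1 gene, MCM7, with 54.4 TPM in set A and 53.0 TPM in set B. The median TPM change of the 15 from day 8 to day 12 was -6.90 on the log2 scale. That of DNMT1 was -7.65 and that of UHRF1 -8.59. The share of the fall of DNMT1 and UHRF1 that moved with the marker sum was not tested.

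**Figure D3:**
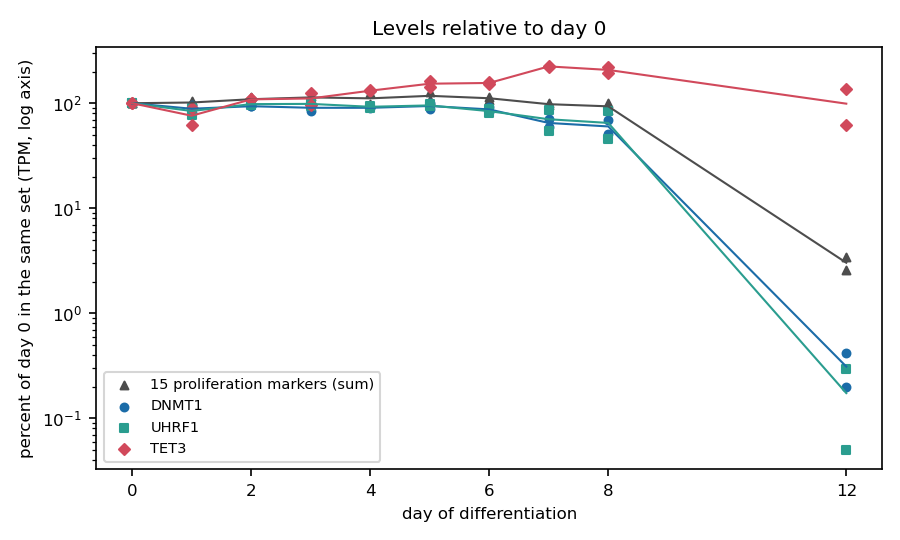
TPM of DNMT1, UHRF1, TET3 and the sum of 15 proliferation markers as a percent of day 0 in the same set (y axis, log scale) against day (x axis). Points are single libraries and lines their means. On day 12 the marker sum lay at 2.59% and 3.47%, DNMT1 at 0.200% and 0.421%, and TET3 at 61.4% in set A and 137% in set B. The marker sum of day 12 was largely MCM7, at 54.4 TPM in set A and 53.0 TPM in set B.

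The promoter windows of DNMT1 and UHRF1 are shown because the genes fell together. RefSeq windows (GRCh38.p14) from 250 bases before to 50 bases after a start were matched for 9 of 9 members, which have 20 windows among 35116. Each was searched on both strands for the E2F letters TTTCCCGC, TTTCGCGC, TTTGCCGC and TTTGGCGC, chosen after the values were seen. A match was found in 3 of the 20 windows, 1 of DNMT1 and 2 of UHRF1, and in 3.31% of all windows. In capitals is the match, read on the strand opposite to the letters as listed. The DNMT1 stretch is 30 bases on the minus strand of chr19:10194937-10194966, where the match begins 2 bases before the start. The UHRF1 stretch is the 250 bases before the start of transcript variant 1, on the plus strand of chr19:4909251-4909500, where the match begins 14 bases before the start.
DNMT1: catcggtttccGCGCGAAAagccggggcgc
UHRF1: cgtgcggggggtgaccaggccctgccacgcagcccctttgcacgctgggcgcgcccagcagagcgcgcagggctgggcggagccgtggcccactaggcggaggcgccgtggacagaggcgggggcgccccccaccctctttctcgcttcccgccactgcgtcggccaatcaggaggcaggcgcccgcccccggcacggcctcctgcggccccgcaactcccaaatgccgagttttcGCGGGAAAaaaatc
The starts are those of the annotation and were not measured here, and a match describes letters, not a bound site.

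The de novo methyltransferases were low from the beginning. DNMT3A (chromosome 2, 25227874 to 25342590, minus strand) had 8.74 TPM in set A and 13.1 TPM in set B on day 0, 4.51 and 8.04 TPM at day 4, 2.34 and 2.42 TPM on day 8, and 0.133 and 0.355 TPM at day 12. Both day 0 libraries were above all later ones. On the TMM scale it went from 21.4 ± 0.82 CPM on day 0 to 10.2 ± 0.784 CPM on day 8 and 3.34 ± 1.26 CPM on day 12. DNMT3A fell by 1.07 on the log2 scale from day 0 to day 8 (SE 0.22, edgeR adjusted p = 0.0022) and by a further 1.61 to day 12 (SE 0.23, adjusted p = 4.0e-05). Day 4 against day 0 gave -0.55 (SE 0.22, adjusted p = 0.189) and day 8 against day 4 gave -0.52 (SE 0.22, adjusted p = 0.116). The latter passed in 4 of 11 alternatives. It passed with the table of origin, set A or set B, as a term (edgeR adjusted p = 0.0466). It also passed by DESeq2 (0.0289) and by limma on log2(TPM + 1) (0.0096) and log2(TPM + 0.1) (0.0159). The genes most like DNMT3A in log2 CPM over the 20 libraries were NIPSNAP2 (r = 0.986), INTS6L (r = 0.986) and BBS9 (r = 0.985).

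DNMT3A is known for a long and a short form that start at separate promoters, the short form at the downstream one. Transcripts of a gene were summed where each 5′ end lay within 2000 bases of the next, so that a group can span more. This grouping was chosen after transcript shares were seen. The 4 transcripts starting between 25252131 and 25252315 held 31.3% of DNMT3A TPM in set A and 85.9% in set B on day 0, and 1.10% and 24.8% on day 8. On day 12 they were at 0 counts, and the 8 transcripts starting between 25341925 and 25342590 held 100% of the 69 and 131 counts. The shares fell in each set but differed widely between the libraries of day 0. The fitted change of the short-form starts from day 0 to day 8 was -3.76 (SE 1.30, edgeR adjusted p = 0.0534) and did not pass. That of the long-form starts was -0.25 (SE 0.46, adjusted p = 0.743).

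DNMT3B (chromosome 20, 32762385 to 32809356, plus strand) had 3.29 TPM in set A and 1.21 TPM in set B on day 0, 2.32 and 1.75 TPM at day 6, 0.927 and 0.916 TPM on day 7, 0.805 and 0.60 TPM at day 8, and 0 counts in both libraries of day 12. Its drop between day 6 and day 7 was seen in each set. Day 8 against day 0 gave -1.02 (SE 0.45, edgeR adjusted p = 0.0933) and did not pass. The change was -1.43 within set A and -0.30 within set B. With 1 library left out it ran from -1.53 to -0.23. It passed in 3 of 10 alternatives, 1 of them with the table of origin as a term (edgeR adjusted p = 0.0232). Against the floor of 3 counts per library, DNMT3B was at least 18.2-fold lower on day 12 than on day 8 (adjusted p = 5.3e-06). Which DNMT3B transcript held the counts differed between libraries of 1 day. On day 0 transcript variant 3 held 83.6% of the TPM in set A and 0% in set B, where variant 1 held 86.3%. NTAQ1 (r = 0.992), ICA1L (r = 0.992) and PROSER2 (r = 0.991) were most like DNMT3B over the 20 libraries.

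Among the erasers, TET3 was the member that rose. TET3 (chromosome 2, 73982036 to 74135394, plus strand) had 16.9 TPM in set A and 13.2 TPM in set B on day 0, 21.9 and 17.6 TPM at day 4, 38.0 and 29.5 TPM on day 7, 33.0 and 28.98 TPM at day 8, and 10.4 and 18.1 TPM on day 12. Both libraries of days 7 and 8 were above all earlier ones. TET3 rose by 1.58 on the log2 scale from day 0 to day 8 (SE 0.27, edgeR adjusted p = 5.5e-04), from 72.0 ± 10.0 CPM to 215 ± 9.83 CPM, and this call held in all 11 alternatives and with each of the 4 libraries left out in turn. It rose by 1.03 from day 4 to day 8 (SE 0.26, adjusted p = 0.0187). That call was kept in 8 of 11 alternatives, and without the set A library of day 8 (adjusted p = 0.0373), but not without the set B library of day 8 (0.121), the set A library of day 4 (0.0698) or the set B library of day 4 (0.120).

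From day 8 to day 12 the direction of TET3 depended on the scale. The fitted change was 0.25 on TMM-scaled counts (SE 0.26, edgeR adjusted p = 0.427) and -1.17 by limma on log2(TPM + 0.1) (adjusted p = 0.0072), where the median of all genes was -1.20. Globin RNA took 33.7% of the set A library and 28.2% of the set B library of day 12, with TMM factors of 0.464 and 0.544, against 0.994 and 0.805 on day 8. The genes whose log2 CPM was most like TET3 over the 20 libraries included AGO2 (r = 0.989), the slicer of RNA interference, and SLC7A1 (r = 0.977), a cationic amino acid transporter.

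The transcripts of TET3 changed with its level. Its annotated 5′ ends form 2 groups, 11 transcripts that start between 73982036 and 73986575 (upstream starts) and 3 that start between 74002692 and 74003110 (downstream starts). The 2 curated RefSeq transcripts, variant 1 (NM_001287491) upstream and variant 2 (NM_001366022) downstream, start 17782 bases apart. Variant 1 did not always hold most of the upstream sum. On day 4 in set A the 2 curated transcripts together had 7.21 TPM, against 19.3 TPM for all upstream starts. The upstream starts summed to 16.6 TPM in set A and 13.2 TPM in set B on day 0, 22.1 and 15.2 TPM at day 6, 18.1 and 13.1 TPM on day 7, 7.02 and 7.81 TPM at day 8, and 0.125 and 0.574 TPM on day 12. The downstream starts summed to 0.318 and 0 TPM on day 0, 4.75 and 4.96 TPM at day 6, 19.9 and 16.4 TPM on day 7, 26.0 and 21.2 TPM at day 8, and 10.2 and 17.5 TPM on day 12. The order of the groups turned between day 6 and day 8 in both sets. As a share of TET3 TPM, the downstream starts held 1.88% and 0% on day 0, 17.7% and 24.5% on day 6, 52.3% and 55.7% on day 7, 78.8% and 73.0% on day 8, and 98.8% and 96.8% on day 12.

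**Figure D4:**
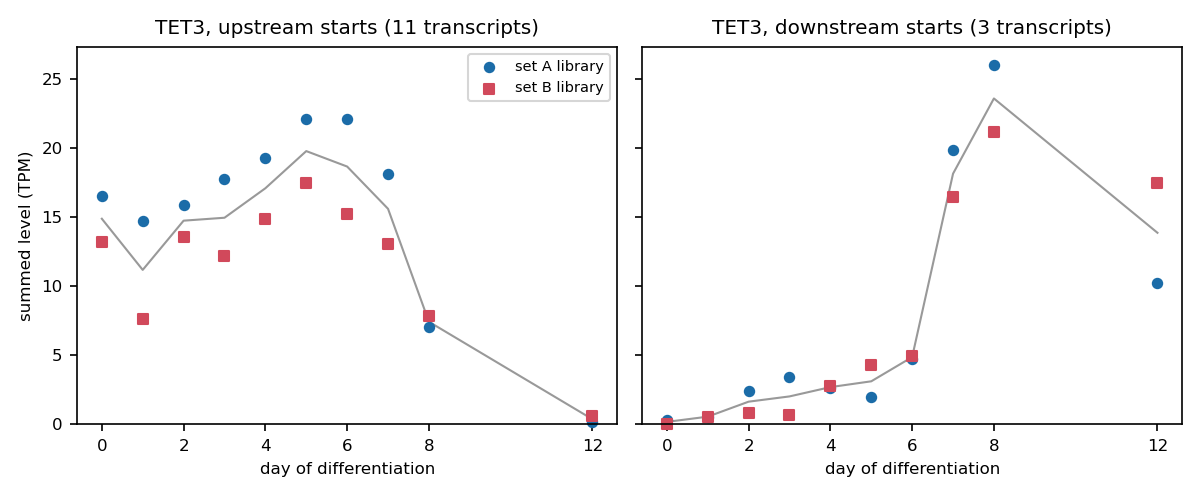
Summed TPM of TET3 transcripts (y axis, from 0, shared) with upstream starts (left) and downstream starts (right) against day (x axis). Circles are set A, squares set B and lines their means. The upstream sum fell from 22.1 and 15.2 TPM on day 6 to 7.02 and 7.81 TPM at day 8, while the downstream sum went from 4.75 and 4.96 TPM to 26.0 and 21.2 TPM.

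A fit over 20767 such start groups called the downstream TET3 group higher on day 8 than on day 0 by 7.79 on the log2 scale (SE 1.24, edgeR adjusted p = 7.2e-04), where 12.4% of all groups were higher. The size of that change rests on 107 counts in set A and 0 counts in set B on day 0, against 8371 and 8818 counts on day 8. Without the set B library of day 0 it was 6.81 (adjusted p = 0.0023), and without the set A library the day 0 level is 0 and no fold is given. The upstream group gave -0.39 between the same days (SE 0.50, adjusted p = 0.612). From day 8 to day 12 the upstream group fell by 3.36 (SE 0.56, adjusted p = 2.8e-04), where 28.6% of all groups were lower, and the call held with each of the 4 libraries left out. The downstream group gave 0.57 (SE 0.90, adjusted p = 0.657) on TMM-scaled counts between those days, while its TPM was lower in both sets. In a fit of 75285 single transcripts, variant 2 was the 1 transcript of the 9 genes called higher on day 8 than on day 0 (7.78, SE 1.77, adjusted p = 0.0441), where 0.914% of all transcripts were, and with 1 library left out it was kept in 1 of 4 fits. On day 12 against day 8, 13 of 55 transcripts of the 9 genes tested were lower, where 11.4% of all transcripts were.

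The 250 bases before each of those TET3 starts are shown because the transcripts moved from the first start to the second. Both lie on the plus strand, at chr2:73984660-73984909 for the upstream start of variant 1 and chr2:74002442-74002691 for the downstream start of variant 2. In capitals are CACGTG, the E-box, and CCAAT or its reverse complement ATTGG.
TET3 upstream start: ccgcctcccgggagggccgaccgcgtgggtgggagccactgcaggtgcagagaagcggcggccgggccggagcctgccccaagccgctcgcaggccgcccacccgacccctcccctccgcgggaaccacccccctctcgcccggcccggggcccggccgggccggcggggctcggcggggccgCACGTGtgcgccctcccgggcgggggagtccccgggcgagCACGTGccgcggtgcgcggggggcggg
TET3 downstream start: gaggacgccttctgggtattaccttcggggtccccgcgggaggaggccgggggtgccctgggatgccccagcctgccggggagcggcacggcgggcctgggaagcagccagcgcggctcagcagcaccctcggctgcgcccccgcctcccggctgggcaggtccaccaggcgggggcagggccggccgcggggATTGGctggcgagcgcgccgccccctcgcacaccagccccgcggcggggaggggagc
The upstream stretch holds CACGTG at 2 places and no CCAAT, and the downstream stretch holds ATTGG at 1 place and no CACGTG. In all windows searched, 7.26% hold CACGTG and 34.6% hold CCAAT on either strand. The letters of a GATA site (AGATAA, with T also allowed as its first base and G as its last) were found in 25% of all windows and in 0 of the 20 windows of the members. The letters of a CACCC box, CCACACCC, CCCCACCC, CCGCACCC or CCTCACCC, were found in 18.3% of all windows and in 3 of the 20. CpG dinucleotides numbered 37 before the upstream start and 27 before the downstream start, against a median of 11 over all windows. How the authors divided reads shared by transcripts of a gene is not given in the sources used here, and it sets all of these transcript values.

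TET2 (chromosome 4, 105145875 to 105279803, plus strand) had 7.25 TPM in set A and 6.10 TPM in set B on day 0, 4.52 and 3.56 TPM at day 8, and 0.383 and 1.11 TPM on day 12. It changed by -0.13 from day 0 to day 8 (SE 0.26, edgeR adjusted p = 0.742). TET2 was lower by 1.08 on day 12 than on day 8 on the log2 scale (-1.08, SE 0.27, adjusted p = 0.0037), more in set A (-1.74) than in set B (-0.62). In the fit of those 4 libraries alone it did not pass (adjusted p = 0.0687). TET3 had 2.33 and 2.17 times the TPM of TET2 on day 0, 7.32 and 8.14 times on day 8, and 27.1 and 16.3 times on day 12. TET3 thus went from 69.9% and 68.3% of the summed TET TPM on day 0 to 88.0% and 89.1% on day 8. Most like TET2 over the 20 libraries were LOC553939 (r = 0.960), TBC1D32 (r = 0.952) and ERCC4 (r = 0.952), a DNA repair endonuclease subunit.

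TET1 (chromosome 10, 68560337 to 68700794, plus strand) stayed at the limit of detection. Its highest value was 0.0532 TPM, from 28 counts in the set B library of day 2. It had 13 and 18 counts on day 0 and 0 counts in both libraries on days 7, 8 and 12. Against the floor of 3 counts per library it was at least 3.90-fold lower on day 8 than on day 0 (edgeR adjusted p = 0.0475), and the call was lost with each of the 4 libraries left out, with adjusted p between 0.0811 and 0.174. Over the 20 libraries EFHB (r = 0.881), RWDD2A (r = 0.877) and CEBPZ (r = 0.877) were most like TET1.

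TDG, the glycosylase (chromosome 12, 103965804 to 103988878, plus strand), had 49.4 TPM in set A and 48.3 TPM in set B on day 0, 50.5 and 62.2 TPM at day 2, 31.7 and 24.3 TPM on day 8, and 8.66 and 12.4 TPM at day 12. Its direction from day 8 to day 12 also turned with the scale, 0.02 on TMM-scaled counts (SE 0.17, edgeR adjusted p = 0.934) and -1.41 by limma on log2(TPM + 0.1) (adjusted p = 1.9e-05), where the median of all genes was -1.20. On TMM-scaled counts TDG had 62.2 ± 1.56 CPM on day 0, 53.7 ± 2.79 CPM on day 8 and 54.6 ± 3.36 CPM on day 12. Those counts gave -0.21 for day 8 against day 0 (SE 0.17, adjusted p = 0.347), and limma on log2(TPM + 1), where the libraries of the 2 days did not overlap, called -0.79 (adjusted p = 0.0033). The median change of all genes in that limma fit was -0.34. On day 12 TET3 and TDG were the highest of the 9 genes by TPM, and their libraries overlapped. GK (r = 0.928), glycerol kinase, SMNDC1 (r = 0.917) and ALDH1A2 (r = 0.906) were most like TDG over the 20 libraries.

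MBD2, the reader of methylated CpG (chromosome 18, 54151606 to 54224669, minus strand), had 32.5 TPM in set A and 25.8 TPM in set B on day 0, 32.0 and 42.4 TPM at day 1, 19.4 and 11.9 TPM on day 8, and 2.55 and 3.91 TPM at day 12. The day 1 value was raised in set B but not in set A. MBD2 fell by 0.83 on the log2 scale from day 8 to day 12 (SE 0.19, edgeR adjusted p = 0.0020), from 47.5 ± 9.94 CPM to 26.7 ± 2.82 CPM. Day 8 against day 0 gave -0.31 (SE 0.19, adjusted p = 0.209) on counts, and limma on log2(TPM + 1) called -0.88 (adjusted p = 0.0082). The median change of all genes in that limma fit was -0.34. Transcript variant 1 held 99.8% to 100% of MBD2 TPM on days 0, 8 and 12. SELENOF (r = 0.974), ACSL4 (r = 0.974) and TTC19 (r = 0.969) were most like MBD2 over the 20 libraries.

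On day 0 the order by mean TPM was DNMT1, UHRF1, TDG, MBD2, TET3, DNMT3A, TET2, DNMT3B and TET1, and no neighbours in it overlapped. On day 8 TET3 stood between UHRF1 and TDG, and overlapped with both. On day 12 the order was TET3, TDG, MBD2, TET2, DNMT1, DNMT3A and UHRF1, with TET1 and DNMT3B at 0, and TET2 overlapped with DNMT1 and DNMT3A with UHRF1. DNMT1 had 13.6 and 14.8 times the TPM of TET3 on day 0 and 4.78 and 3.45 times on day 8. On day 12 TET3 had 22.6 and 22.0 times the TPM of DNMT1. This ratio is taken within a library and does not depend on the scaling between libraries.

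Genes listed as partners of maintenance methylation moved in both directions on TMM-scaled counts. Of 8 tested of 9, 6 were lower on day 12 than on day 8 and 2 were higher, where 33.4% and 23.8% of all genes were, with a median of -3.13 on the counts and of -4.68 in TPM. CDCA7, which activates the remodeler HELLS, fell by 7.99 (SE 0.65, edgeR adjusted p = 2.2e-07) and HELLS fell by 5.53 (SE 0.21, adjusted p = 2.2e-10). On day 12 CDCA7 had 0 counts in set A and 17 in set B, so the size of its fall depends on the floor. CDCA7L, the paralog of CDCA7, fell by 5.49 (SE 0.34, adjusted p = 1.8e-08). USP7, a deubiquitinase that stabilises DNMT1 and UHRF1, was higher by 1.67 on TMM-scaled counts (SE 0.13, adjusted p = 1.4e-07), while its TPM went from 89.5 to 84.0 in set A and from 73.9 to 107.7 in set B. The other of the 2 listed genes that were higher was PAF1. It is a transcription elongation factor, and a role of PAF1 in maintenance methylation was not tested. It was higher by 1.08 on those counts (SE 0.20, edgeR adjusted p = 4.1e-04). Its TPM was lower in both sets, from 61.5 to 43.4 in set A and from 52.1 to 43.7 in set B. Between day 0 and day 8, 2 were higher and 1 was lower, where 17.7% and 19.4% of all genes were. USP7 was then higher by 0.71 on the counts (SE 0.13, edgeR adjusted p = 7.8e-04), with TPM of 75.7 and 73.7 on day 0 against 89.5 and 73.9 on day 8.

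Of 10 other genes listed as readers of methylated CpG, 7 were higher and 2 lower on day 12 than on day 8. Of all genes, 23.8% were higher and 33.4% lower. The list includes MBD3, MBD5 and MBD6, and binding of methylated CpG was not tested for any gene in it. The median of the list was 0.59 on TMM-scaled counts, and its median TPM change was -0.85 on the log2 scale. The direction of the list thus also turned with the scale. MBD6 rose by 2.38 (SE 0.37, edgeR adjusted p = 8.8e-05) on the counts and ZBTB38 fell by 2.05 (SE 0.45, adjusted p = 0.0014). On day 12 ZBTB38 had 5 counts in set A and 8 in set B. From day 0 to day 8, 3 were higher and 1 lower, against 17.7% and 19.4% of all genes, and ZBTB4 rose by 1.51 (SE 0.14, adjusted p = 5.3e-06). UHRF2, the paralog of UHRF1, was higher by 0.65 on TMM-scaled counts from day 0 to day 8 (SE 0.15, adjusted p = 0.0052), while its TPM went from 28.9 to 28.6 in set A and from 24.3 to 25.9 in set B. From day 8 to day 12 it was higher by 0.63 on those counts (SE 0.15, adjusted p = 0.0031), but its TPM was lower in both sets, at 13.9 and 17.2.

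Of 12 subunits of NuRD, the complex that MBD2 recruits, 10 were lower on day 12 than on day 8 and 2 were higher, where 33.4% and 23.8% of all genes were, with a median of -1.20 on the counts and of -2.63 in TPM. MTA3 fell by 3.97 (SE 0.34, edgeR adjusted p = 3.9e-07) and RBBP7, a histone chaperone, fell by 3.26 (SE 0.12, adjusted p = 2.2e-10). On day 12 MTA3 had 8 counts in each set. The 2 that were higher on the counts were GATAD2A, at 1.27 (SE 0.14, adjusted p = 5.3e-06), and GATAD2B, at 1.17 (SE 0.35, adjusted p = 0.011), and in TPM both were lower in set A and higher in set B. By day 8, against day 0, 6 were lower and 1 was higher, against 19.4% and 17.7% of all genes.

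Of 13 genes of base excision repair and its accessories, 8 were lower and 1 higher on day 12 than on day 8, where 33.4% and 23.8% of all genes were, with a median of -0.64 on the counts and of -2.24 in TPM. UNG, the uracil glycosylase, fell by 5.79 (SE 0.61, edgeR adjusted p = 2.6e-06) and PARP1 fell by 3.43 (SE 0.29, adjusted p = 3.0e-07). On day 12 UNG had 6 counts in set A and 27 in set B. GADD45A, a stress-response gene linked to active demethylation, rose by 3.93 (SE 0.56, adjusted p = 4.1e-05), and by 2.49 from day 0 to day 8 (SE 0.53, adjusted p = 0.0027). Between day 0 and day 8, 1 of the 13 was higher and 3 were lower, against 17.7% and 19.4% of all genes.

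Of 8 tested of 9 genes that supply the TET co-substrate or partner with the TET proteins, 4 were higher and 1 lower on day 12 than on day 8, where 23.8% and 33.4% of all genes were, with a median of 0.29 on the counts and of -1.07 in TPM. IDH2, the mitochondrial source of 2-oxoglutarate, rose by 1.30 from day 0 to day 8 (SE 0.24, edgeR adjusted p = 9.3e-04) and fell by 4.08 from day 8 to day 12 (SE 0.26, adjusted p = 2.7e-08). IDH1, its cytosolic counterpart, was higher by 1.48 from day 8 to day 12 on the counts (SE 0.22, adjusted p = 5.1e-05), while its TPM was lower in set A, from 34.3 to 29.4, and higher in set B, from 27.2 to 32.7. CXXC4 did not pass the filter on low counts. From day 0 to day 8, 1 was higher and 1 lower, against 17.7% and 19.4% of all genes.

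A list of 8 genes stood for the cycle that makes S-adenosylmethionine, the methyl donor. It includes AHCYL1 and AHCYL2, whose part in that cycle was not tested. Of the 7 genes that passed the filter, 4 were lower and 1 higher on day 12 than on day 8. Of all genes, 33.4% were lower and 23.8% higher. The median of the list was -0.40 on the counts and -1.83 in TPM. AHCY, which removes the S-adenosylhomocysteine left by methyl transfer, was already lower on day 8 than on day 0 by 1.59 (-1.59, SE 0.31, edgeR adjusted p = 0.0014) and fell by a further 1.40 to day 12 (SE 0.31, adjusted p = 0.0014). MAT2B, the regulatory subunit of the synthetase, rose by 2.82 from day 8 to day 12 (SE 0.13, adjusted p = 1.1e-09). By day 8, against day 0, 4 of the 7 were lower and 1 was higher, against 19.4% and 17.7% of all genes.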

How the data were processed

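Polyadenylated RNA of HUDEP-2 cells was sequenced on 10 days with 2 libraries a day. A stranded TruSeq mRNA kit was used. Per the submitters' processing notes, Trimmomatic 0.38 removed adapters and poor bases, HISAT2 2.1.0 placed the reads on hg38 and StringTie 2.1.3b gave the transcript values. The deposited counts are whole read counts per RefSeq transcript, not normalized. The deposited TPM are values the authors scaled by transcript length to a fixed total per library. FPKM were not used. The annotation release and the division of reads shared by transcripts are not given in the sources used here. Scripts read 40 columns of library values, and another 23 stayed out, among them a further set of day 0 columns.

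Transcripts were summed by gene symbol. Genes were filtered with filterByExpr, scaled by TMM and tested with the quasi-likelihood test of edgeR 4.0.16 in 1 fit of 20 libraries with a coefficient per day, Benjamini-Hochberg adjustment over all 16784 genes and a threshold of 0.05. The study's own edgeR exact test, DESeq2 1.42.0, limma 3.58.1 on log2(TPM + 1) and log2(TPM + 0.1), other scalings and filters, and each library left out were alternatives. On counts simulated for day 8 against day 0 over 16784 genes the test recovered 74% of 4-fold and 7% of 2-fold changes. The simulation changed 100 genes by each fold and gave every gene the same squared spread between libraries (0.098). In the data 6224 genes were called and the spread differed by gene, so these rates need not hold there. The text names all 9 members, the 3 genes with the highest Pearson r of log2 CPM (prior count 2) with a member, and, of each list, the genes called in most comparisons or with the largest changes. Some genes that this rule or the marker lists hold are not reported here. Members and lists were chosen with earlier results of these data known. Transcripts were named where they held 10% of a member's TPM on some day. Groups of transcripts by 5′ end and the sequence motifs were added after the data were seen, the strand being taken from the RefSeq promoter table. That table gave a strand for the genes of 122696 of the 170322 transcripts. Genes without a strand were not split by 5′ end, so the shares over all start groups include such whole genes.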

Additional observations from a re-analysis of the deposited data

How the results depend on the processing

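No paired analysis was possible because the columns name a day and no replicate number to pair by. The set of a library (A or B), called the table of origin here, was instead fitted as a term. It held the mean difference between the sets fixed. Set B pools tables of separate days, which the term did not separate. In that fit, days of different tables in set B cannot be told apart from the tables. That fit called DNMT3A, DNMT3B and TET3 on day 8 against day 4, and DNMT3B besides the 3 already called on day 8 against day 0. The 6 members called on day 12 against day 8 stayed at 6 with each library left out, and those on day 8 against day 0 were 2 to 3, on day 8 against day 4 0 to 1, and on days 1 and 4 against day 0 they were 0. Members called rose to 1 by DESeq2 on day 4 against day 0. On day 8 against day 4 they numbered 3 with the table of origin as a term, 2 by DESeq2, 3 and 4 by limma on log2(TPM + 1) and log2(TPM + 0.1), and 0 with only the 4 libraries. In both limma fits they were 6 on day 8 against day 0.

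Genes called on day 1 against day 0 were 66, and 442 with the table of origin as a term, 425 by DESeq2, 299 and 157 by limma, 245 by the exact test and 0 with only the 4 libraries, where 1227 genes had an unadjusted p under 0.05. On day 4 against day 0 they were 887, and 2401, 1875, 1402 by limma on log2(TPM + 1), 1475 by the exact test and 409 with 4 libraries. On day 8 against day 4 they were 2884, and 5358, 4337, 4837 and 4796 by limma, and 72 with 4 libraries. On day 8 against day 0 they were 6224, and 3726 with 4 libraries. Leaving out 1 library gave 7 to 50, 197 to 468, 604 to 3575 and 3568 to 5833 in that order, and 7982 to 8972 on day 12 against day 8. Counts moved by over 1.5 times without D0 set B (7), D1 set A (40) or D1 set B (17) on day 1 against day 0, without D0 set A (468), D0 set B (242), D4 set A (355) or D4 set B (197) on day 4 against day 0, without D4 set A (723), D4 set B (1464) or D8 set B (604) on day 8 against day 4, and without D0 set B (3947) or D8 set B (3568) on day 8 against day 0.

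In TPM the medians of all genes moved by -0.34 on day 8 against day 0 and by -0.68 on day 12 against day 8 (log2(TPM + 1)), and 1407 genes were higher and 8997 lower in the latter, against 3997 and 5611 on the counts. With log2(TPM + 0.1) they were 1361 and 9739. For day 8 against day 0 they were 1223 and 6660, or 1242 and 6555, against 2970 and 3254 on the counts. For day 8 against day 4 they were 590 and 4247, or 574 and 4222, against 1333 and 1551. On day 4 against day 0 they were 288 and 1114, or 279 and 790, against 492 and 395, where the exact test gave 648 and 827 and 4 libraries 171 and 238. On day 1 against day 0 they were 130 and 169, or 88 and 69, against 44 and 22. The direction turned for TET3 (-1.12 and -1.17) and TDG (-1.34 and -1.41, and -0.025 without a filter) on day 12 against day 8. On day 4 against day 0, where no member passed, it turned for DNMT1 (-0.019, -0.00052, -0.0053, -0.14 and -0.14), UHRF1 (-0.11 and -0.11), TDG (0.0057, 0.016 and 0.016) and MBD2 (0.0017 and 0.0017). Of 440 member fold changes under other alternatives 399 kept their direction and side of the threshold. With 1 library left out the direction turned for 21 of 180 member fold changes, none of a member called in that comparison. The range of the log2 fold change was DNMT1 -0.27 to 0.075, TDG -0.012 to 0.29 and TET3 -0.73 to 0.10 for day 1 against day 0. It was DNMT1 -0.13 to 0.13, DNMT3B -0.36 to 0.93, MBD2 -0.14 to 0.11, TDG -0.18 to 0.15, TET2 -0.19 to 0.12 and UHRF1 -0.041 to 0.11 for day 4 against day 0. It was DNMT1 -0.33 to 0.036 and UHRF1 -0.41 to 0.25 for day 8 against day 0. It was DNMT1 -0.35 to 0.031, TET2 -0.25 to 0.063 and UHRF1 -0.46 to 0.21 for day 8 against day 4. It was TDG -0.068 to 0.077 for day 12 against day 8. Transcripts of the members called, 1 on day 8 against day 0 and 13 on day 12 against day 8, were 0 to 1 and 12 to 13 with 1 library left out, and 8 start groups were called in the latter. The curated-transcript and count-share alternatives left 65 of 90 TPM values and 281 of 311 shares within 1 SD. DNMT3B on day 12 did not pass by limma on log2(TPM + 1) (adjusted p = 0.0547).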
